A study of Sus scrofa with 8 samples.

Results

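The genes described here encode proteins of the lipid droplet surface and of caveolae, the small flask-shaped pits of the plasma membrane. The list named 10 genes, and members were the array's probe sets annotated with exactly 1 gene symbol from it. This gave 11 probe sets for 6 genes, PLIN2, PLIN3, CIDEA, BSCL2, CAV1 and CAV2, out of 24123 probe sets in all. PLIN1, PLIN4, PLIN5 and CIDEC had 0 such probe sets, by symbol or by Entrez identifier, and were not analysed here. The samples were total RNA from backfat, the subcutaneous fat of the back, of KNP and YS pigs kept under the same conditions, 4 per breed, each on 1 Affymetrix GeneChip Porcine Genome Array. KNP, which the labels do not spell out, was sampled at 7 months of age and YS, given as Yorkshire in 1 label, at 6 months, so breed and age cannot be told apart. The labels state no sex and no treatment. Whether the 4 samples of a breed were 4 animals is not stated, so SDs and p-values measure only the spread between these samples. Array signals carry no counts, and the 4 arrays per breed limit the precision.

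A fat cell stores triacylglycerol in a large droplet that is covered by a single layer of phospholipid and by coat proteins. Perilipins are the main coat family: PLIN1 guards the droplet of the mature fat cell against lipases, while PLIN2 and PLIN3 are found in most tissues. CIDEA and CIDEC sit where droplets touch and let lipid pass from a small droplet to a large one. Seipin, the product of BSCL2, lies at the junction of the endoplasmic reticulum and the growing droplet. Its loss causes congenital lipodystrophy, as does loss of CAV1. Caveolin 1 and caveolin 2 build caveolae, which are dense in fat cells and in endothelium, and caveolin 2 needs caveolin 1 to reach the cell surface. CAV1 and CAV2 are next to each other in RefSeq's pig annotation (assembly Sscrofa11.1), with 0 genes between them, as are PLIN4 and PLIN5.

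The arrays were not of equal quality, which bears on several results below. Median signal ranged from 158.2 to 263 after scaling. The 3'/5' difference, the mean log2 excess of 3' over 5' probe sets of 3 housekeeping controls, grows as RNA is broken or copied only in part. It was 8.54 on KNP replicate 1, 5.88 on KNP replicate 2 and 4.40 on YS replicate 4, and 2.12 to 3.17 on the other 5 arrays. The upper end of the signal of 23 controls with no target in pig (their 95th percentile, from 40.6 to 161 per array) served as a guide to background. Adipocyte markers fitted the labelled tissue: 11 of the 13 tested lay above that level on all arrays, among them FABP4, the fat cell's fatty acid binding protein, with mean log2 signals (± SD, n = 4) of 15.53 ± 0.29 for KNP and 15.35 ± 0.12 for YS. In bulk tissue, fewer cells of a type and less RNA per cell cannot be told apart.

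The comparison asked whether transcripts of droplet coat and caveola proteins differed between KNP and YS backfat. None of the 10 member probe sets tested passed an adjusted p of 0.05 (limma, Benjamini-Hochberg over 17999 probe sets), and 0 had an unadjusted p under 0.05. The background was the same: percent called was 0 over all probe sets, with 511 or 2.84% at an unadjusted p under 0.05. In each of the 10 the breeds overlapped, where 1.96% of all probe sets had no overlap. The perilipins PLIN2 and PLIN3 had somewhat higher mean signal in KNP and all 5 caveolin probe sets had lower mean signal, while CIDEA and seipin took no single direction. Over the 10 the median log2 difference, KNP minus YS, was -0.16, against -0.0010 over all probe sets, and 3 were higher and 7 lower in KNP, where 49.9% of all probe sets were higher. Of these 7, 5 were the caveolin probe sets, which read only 2 genes. By the brightest probe set of each gene, 3 genes were higher and 3 lower in KNP, where 3112 of 6006 named genes were higher. The median size of the difference was 0.34, against 0.24 over all probe sets, with standard errors from 0.26 to 0.62. The 11th probe set, BSCL2 set 2 (Ssc.6603.2.S1_at), was among the 25% with the lowest mean and was not tested; it lay above background on 1 KNP and 2 YS arrays.

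**Figure D1:**
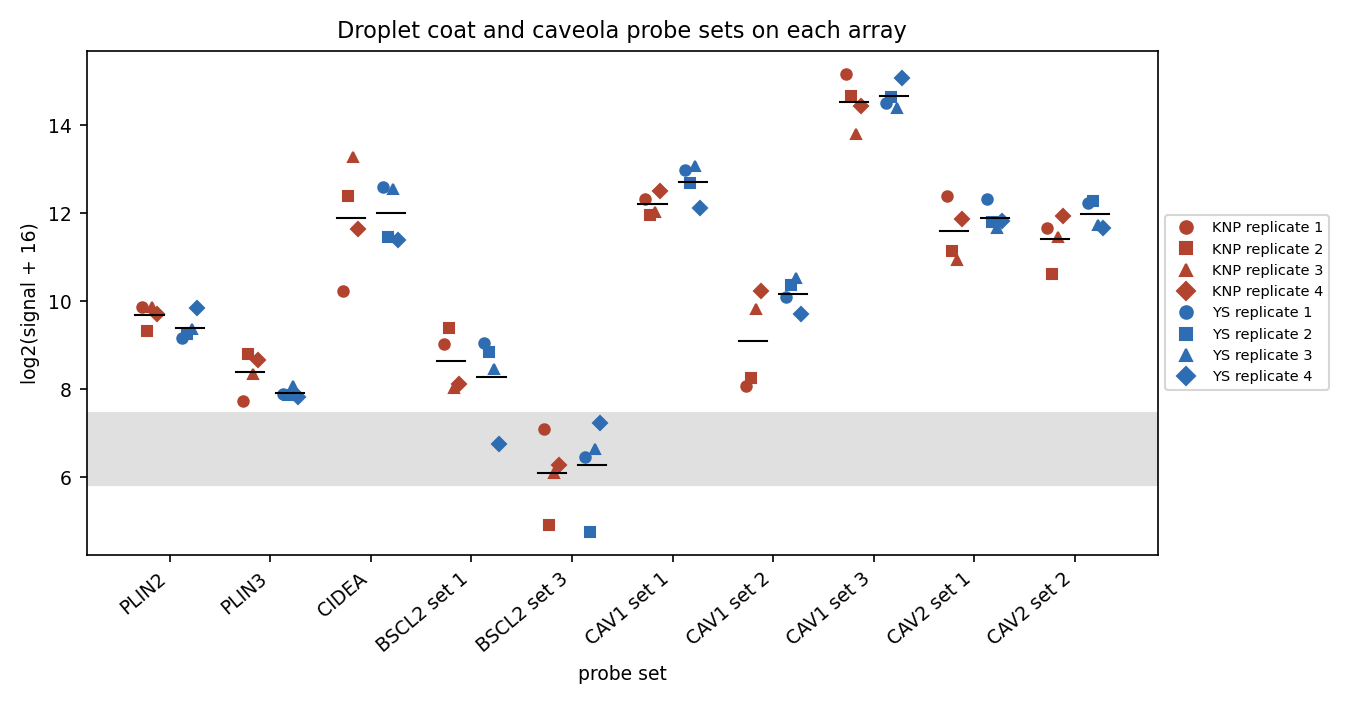
Log2(signal + 16) of the 10 tested member probe sets on each array (points; red KNP, blue YS, shape by replicate) with the breed mean (black line, n = 4). The grey band spans the no-target level of the 8 arrays. In every probe set the breeds overlap, and BSCL2 set 3 lies mostly within the band.

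PLIN2, the coat protein of droplets in many cell types, had log2 signals of 9.88, 9.32, 9.87 and 9.72 on KNP replicates 1 to 4 and of 9.16, 9.26, 9.36 and 9.83 on YS replicates 1 to 4. KNP replicates 1, 3 and 4 lay above YS replicates 1 to 3, and YS replicate 4 reached the KNP level. The means were 9.70 ± 0.26 and 9.40 ± 0.30 (SD, n = 4), a difference of 0.29 ± 0.26 (SE). On this scale the KNP mean was 1.23-fold that of YS with a 95% interval from 0.816 to 1.84, and the adjusted p in limma was 0.9998. Without YS replicate 4 the difference was 0.44, and without YS replicate 1 it was 0.21.

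PLIN3, which moves from the cytosol onto young droplets and also binds cargo receptors of the Golgi, was at 7.74, 8.79, 8.33 and 8.67 in KNP and at 7.90, 7.87, 8.06 and 7.82 in YS. The YS arrays were close together, 3 KNP arrays lay above all of them, and KNP replicate 1 lay below all of them. The means were 8.38 ± 0.47 and 7.91 ± 0.10 (SD, n = 4). The difference of 0.47 ± 0.28 (SE) was the largest of the members towards KNP, 1.38-fold with an interval from 0.89 to 2.15 (limma, adjusted p 0.9998). It was 0.68 without KNP replicate 1 and 0.33 without KNP replicate 2, the array with the highest PLIN3 signal and with strong skeletal muscle signal, described below.

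CIDEA, the droplet fusion protein, varied more than any other tested member in KNP. Its log2 signal was 10.22, 12.39, 13.29 and 11.65 in KNP and 12.59, 11.47, 12.55 and 11.40 in YS. KNP held both the lowest and the highest of the 8 values, on replicates 1 and 3. The means of 11.89 ± 1.30 and 12.00 ± 0.66 (SD, n = 4) differed by -0.11 ± 0.62 (SE), and the interval of the KNP over YS fold, from 0.349 to 2.45, leaves room for changes of more than 2-fold either way. The sign of the difference rested on single arrays, since it was 0.44 without KNP replicate 1, the array with the largest 3'/5' difference, and 0.32 once that difference entered the fit as a covariate.

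Seipin was measured by BSCL2 set 1 (Ssc.6603.1.S1_at), above background on 7 of 8 arrays. Its log2 signal was 9.02, 9.39, 8.03 and 8.11 in KNP and 9.04, 8.84, 8.46 and 6.75 in YS. One YS array, replicate 4, was low and not above background, and without it the YS values lay inside the KNP range. The means were 8.64 ± 0.67 and 8.27 ± 1.05 (SD, n = 4), a difference of 0.37 ± 0.54 (SE). It was -0.14 without YS replicate 4 and -0.71 ± 0.28 (SE) on the 5 arrays of smaller 3'/5' difference (2 KNP, 3 YS; limma, adjusted p 0.592). BSCL2 set 3 (Ssc.6603.3.S1_at) was above background on 1 array of each breed and had means of 6.09 ± 0.90 and 6.27 ± 1.06, so it adds little on seipin.

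The caveolins had 5 probe sets, and all of them were above background on all 8 arrays. CAV1 set 1 (Ssc.12842.1.S1_at) had log2 signals of 12.32, 11.96, 12.02 and 12.51 in KNP and of 12.98, 12.68, 13.07 and 12.12 in YS. YS replicates 1 to 3 lay above all KNP arrays, and YS replicate 4 lay among them. The means were 12.20 ± 0.26 and 12.71 ± 0.43 (SD, n = 4), and the difference of -0.51 ± 0.29 (SE) gave a YS mean 1.42-fold that of KNP, with an interval from 0.905 to 2.24.

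CAV1 set 2 (Ssc.12842.1.S2_at), annotated to the same transcript as set 1, had the largest difference of the members and the smallest unadjusted p, 0.0636 in limma (adjusted p 0.9998). Its log2 signal was 8.07, 8.25, 9.83 and 10.24 in KNP and 10.09, 10.37, 10.52 and 9.71 in YS. KNP replicates 1 and 2 stood far below the other 6 arrays, while KNP replicates 3 and 4 lay within the YS range. The means of 9.10 ± 1.10 and 10.17 ± 0.36 (SD, n = 4) differed by -1.08 ± 0.51 (SE). The difference fell in size to -0.62 ± 0.29 (SE) once the 3'/5' difference entered the fit as a covariate and to -0.29 ± 0.28 (SE) on the 5 arrays where that difference was smaller.

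CAV1 set 3 (Ssc.16989.1.A1_at), annotated to another sequence entry, was at 15.18, 14.66, 13.81 and 14.45 in KNP and at 14.52, 14.64, 14.40 and 15.08 in YS. Its highest values were on KNP replicate 1 and YS replicate 4, the arrays on which set 2 was lowest in each breed. The means were 14.53 ± 0.56 and 14.66 ± 0.29 (SD, n = 4), a difference of -0.14 ± 0.33 (SE) that became 0.10 without KNP replicate 3.

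**Figure D2:**
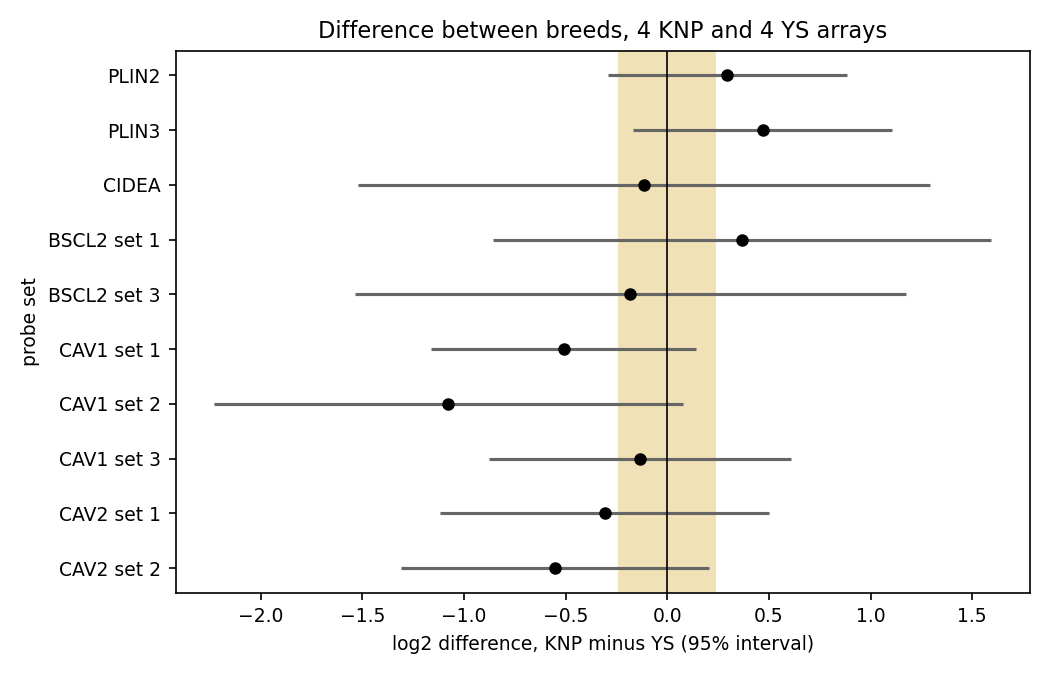
Log2 difference, KNP minus YS, of each tested member probe set (points) with its 95% interval from limma (lines, 4 arrays per breed). The shaded band marks the median size of the difference over all probe sets, 0.24 to each side of 0. All 10 intervals include 0, and all 5 caveolin points lie below it.

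The 3 CAV1 probe sets thus all had lower means in KNP but did not share 1 pattern over the arrays. The gap between sets 3 and 2 followed the 3'/5' difference of the arrays. The log2 gap of set 3 over set 2 was 7.11, 6.42, 3.99 and 4.21 on KNP replicates 1 to 4 and 4.43, 4.27, 3.88 and 5.37 on YS replicates 1 to 4. It was widest on the same 3 arrays that had the largest 3'/5' difference, in the same order. Across the 8 arrays Pearson's r of this gap with the 3'/5' difference was 0.958 (exact permutation p = 0.00166, adjusted p = 0.0249 over 15 relations) and Spearman's rho was 0.786 (exact permutation p = 0.0279, adjusted p = 0.138). Without KNP replicates 1 and 2, the arrays farthest from the median 3'/5' difference, r was 0.780, and it was 0.956 for deviations from breed means. These relations, of the 10 probe sets and 5 gaps between probe sets of 1 gene, were examined after the values had been seen, and 4 of the 15 passed by r and 0 by rho. The gap did not differ between breeds beyond its spread, with means of 5.43 ± 1.57 for KNP and 4.49 ± 0.63 for YS (SD, n = 4; exact two-sided permutation p = 0.343, where 0.0286 is the smallest p possible). The other CAV1 gaps were less firm: r was 0.907 for set 1 over set 2 (exact permutation p = 0.00637, adjusted p = 0.0272) but 0.087 without KNP replicates 1 and 2, and 0.760 for set 3 over set 1 (exact permutation p = 0.0199, adjusted p = 0.0597).

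**Figure D3:**
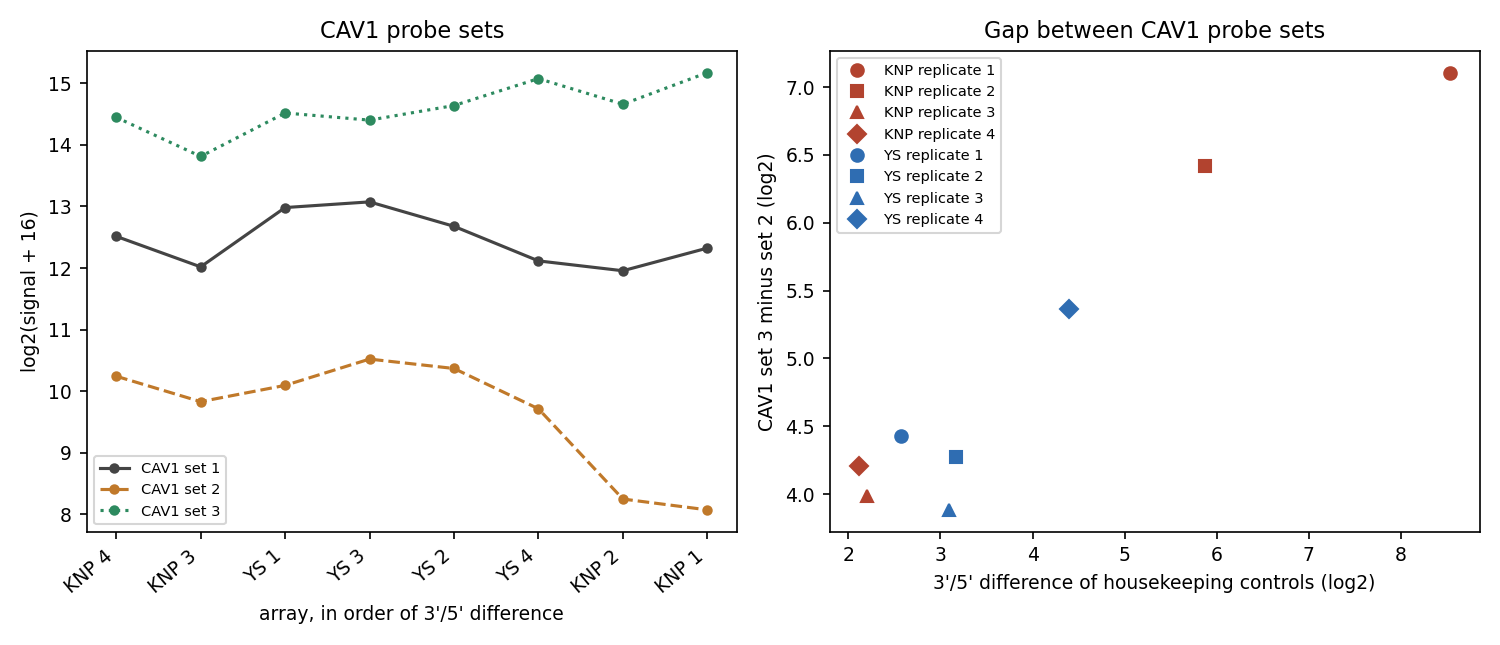
Left, log2(signal + 16) of the 3 CAV1 probe sets on the 8 arrays in order of their 3'/5' difference (lines join the values of 1 probe set). Right, the log2 gap of CAV1 set 3 over set 2 against the array's 3'/5' difference (points are arrays; red KNP, blue YS). The gap is 7.11 on KNP replicate 1, 6.42 on KNP replicate 2 and 5.37 on YS replicate 4, and at most 4.43 on the other arrays.

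Of the 10 probe sets alone, CAV1 set 2 was the only one whose r with the 3'/5' difference passed the adjusted threshold, at -0.894 (exact permutation p = 0.00724, adjusted p = 0.0272), though its rho of -0.619 did not (exact permutation p = 0.115, adjusted p = 0.246) and r was -0.264 without KNP replicates 1 and 2. CAV1 set 3 went the other way, with r = 0.742 (exact permutation p = 0.0444, adjusted p = 0.111) and rho = 0.857 (exact permutation p = 0.0107, adjusted p = 0.138), and r was 0.813 without those 2 arrays.

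CAV2, the partner of caveolin 1, had a pair of probe sets. Set 1 (Ssc.1291.1.A1_at) was at 12.40, 11.15, 10.94 and 11.88 in KNP and at 12.32, 11.80, 11.67 and 11.82 in YS. KNP replicates 2 and 3 lay below every YS array and KNP replicate 1 above every one. The means were 11.59 ± 0.67 and 11.90 ± 0.28 (SD, n = 4), a difference of -0.31 ± 0.36 (SE). Single arrays moved it, to -0.09 without KNP replicate 3, -0.16 without KNP replicate 2, -0.17 without YS replicate 1 and -0.58 without KNP replicate 1.

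CAV2 set 2 (Ssc.31165.1.S1_at) was at 11.67, 10.62, 11.46 and 11.95 in KNP and at 12.24, 12.27, 11.72 and 11.67 in YS. Only KNP replicates 2 and 3 lay below all YS arrays, as for set 1. Its means of 11.42 ± 0.57 and 11.98 ± 0.33 (SD, n = 4) differed by -0.55 ± 0.34 (SE), a YS mean 1.46-fold that of KNP with an interval from 0.866 to 2.48 (limma, adjusted p 0.9998). Without KNP replicate 2 the difference was -0.28. The gap of set 1 over set 2 was 0.73 and 0.53 on KNP replicates 1 and 2 and -0.52 to 0.16 on the other arrays. Its r with the 3'/5' difference was 0.852 (exact permutation p = 0.0037, adjusted p = 0.0272), its rho 0.786 (exact permutation p = 0.0279, adjusted p = 0.138), and r was 0.431 without those 2 arrays, so the relation rests on them.

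All 5 caveolin probe sets had lower means in KNP, by 0.14 to 1.08 on the log2 scale, and none passed the test. CAV1 sets 1 and 2 and both CAV2 sets kept this sign in each of 19 alternative settings, and CAV1 set 3 did not. Among these settings, the changed filters, the variance model and the replicate block leave a difference as it is by construction. The 5 probe sets are not independent measurements, since they read 2 genes on the same 8 arrays. On the 5 arrays of smaller 3'/5' difference the differences were -0.65, -0.29 and -0.39 for CAV1 sets 1 to 3 and -0.52 and -0.37 for CAV2 sets 1 and 2, with standard errors from 0.28 to 0.38, and none passed.

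No pair of members was shown to vary together, with only 8 arrays to go by. Among the 15 pairs of the 6 genes, each by its brightest probe set, 0 passed an adjusted p of 0.05 (exact permutation of pairings over 8 arrays), and r ran from -0.860 to 0.644. The strongest relation was negative: CIDEA was low where CAV1 set 3 was high, with r = -0.860 (exact permutation p = 0.00915, adjusted p = 0.137) and rho = -0.833 (exact permutation p = 0.0154, adjusted p = 0.231). Without KNP replicates 1 and 3 this r was -0.565. CIDEA and CAV1 set 2 were both lowest on KNP replicate 1, at 10.22 and 8.07. The inverse tendency, which did not pass, was thus seen for set 3 and not for CAV1 as a gene. The 2 caveolins had r = 0.644 (exact permutation p = 0.0776, adjusted p = 0.314) and rho = 0.524 (exact permutation p = 0.197, adjusted p = 0.421), and r was -0.114 without KNP replicates 1 and 3, so that relation rests on them. The 2 perilipins had r = -0.04 (exact permutation p = 0.923, adjusted p = 0.963) and rho = -0.262 (exact permutation p = 0.536, adjusted p = 0.805). Groups of 4 arrays were too small for a correlation within a breed, and with deviations from breed means 0 of the 15 pairs passed.

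**Figure D4:**
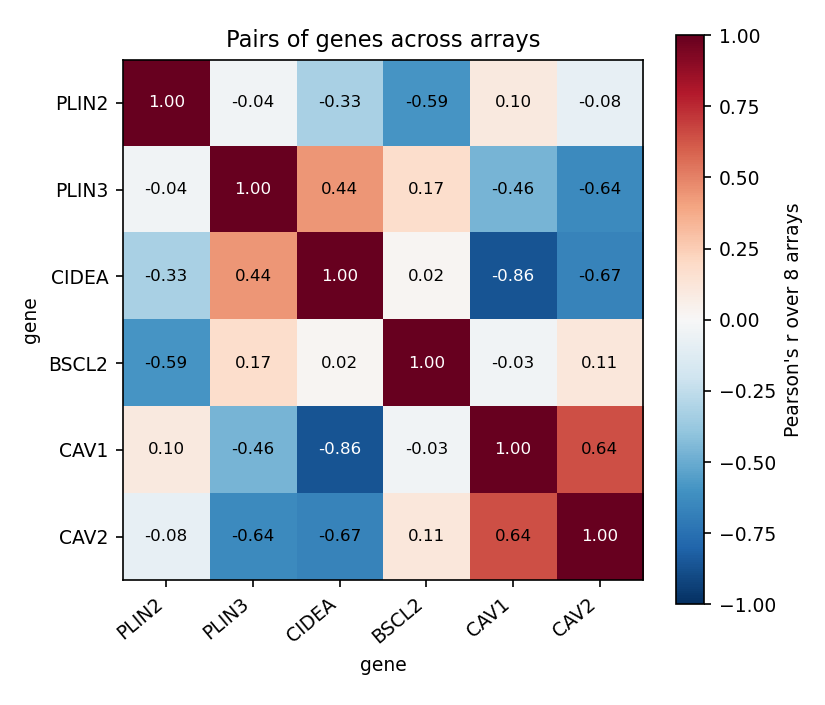
Pearson's r over 8 arrays between the brightest probe sets of the 6 member genes (colour and number, from -1 to 1). CIDEA against CAV1 is the most negative at -0.86 and CAV1 against CAV2 the most positive pair at 0.64.

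Genes outside the list whose pattern over the 8 arrays was most like a member's were found among 6000 named genes by Pearson's r, as a description. For PLIN2 these were PEG3 (r = 0.944), ZNF410 (0.934), MRLN (0.930) and TES (0.926), of which PEG3 and MRLN were above background on 5 and 2 arrays. For CAV1 set 3 they were PCNX4 (0.989), SLC5A10 (0.977), CNDP1 (0.973) and ZFAND6 (0.963), and PCNX4 was above background on 3 arrays. With so many genes and 8 arrays, high values arise often: 11 genes had r above 0.9 with PLIN2 and 41 with CAV1. PLIN1 had no probe set to compare.

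Other genes of the lipid droplet were near balance, with 15 higher and 10 lower in KNP among 25 tested and a median log2 difference of 0.03. None passed the test, and 0 had an unadjusted p under 0.05. The smallest p belonged to CES1, a carboxylesterase, with KNP at 13.50 ± 0.11 and YS at 12.89 ± 0.60 (SD, n = 4), to MGLL, which cleaves monoacylglycerol in the last step of lipolysis, at 12.88 ± 0.37 and 12.43 ± 0.47, and to COPB1, a coatomer subunit, at 11.08 ± 0.27 and 11.40 ± 0.15. For CES1 the YS arrays were spread out, and YS replicates 2, 3 and 4 lay below all KNP arrays. PNPLA2, which encodes the first lipase of the droplet, was at 13.66 ± 0.45 and 13.35 ± 0.42, and its activator ABHD5 at 9.44 ± 0.90 and 9.39 ± 0.27; both are named here for their role beside perilipins, after their values were seen.

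Other caveola genes were also near balance, with 5 higher and 6 lower in KNP among 11 tested and a median of -0.13, and 0 had an unadjusted p under 0.05. Over all 6006 named genes, 3112 were higher and 2894 lower, with a median of 0.01. FLOT2, a raft protein of the flotillin pair, had means of 8.82 ± 0.14 for KNP and 9.24 ± 0.34 for YS (SD, n = 4), its partner FLOT1 at 11.56 ± 0.22 and 11.33 ± 0.41, and the kinase FYN at 10.16 ± 0.32 and 10.48 ± 0.34. These 3 had the smallest p of the list, and the flotillins differed in opposite directions. CAVIN2, a coat protein of caveolae that binds caveolin 1, is named after its values were seen and was at 12.44 ± 0.36 and 12.58 ± 0.20, a difference of -0.13 ± 0.26 (SE).

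Caveolins are also made by endothelium, smooth muscle and fibroblasts, and markers of these cells did not move alike. Endothelial markers were higher in KNP for 3 of 8 genes, with list means from 9.37 to 10.67 in KNP and from 9.93 to 10.37 in YS, the lowest on KNP replicate 1 and YS replicate 4. PECAM1, an adhesion protein of endothelium, had means of 13.16 ± 0.25 for KNP and 12.92 ± 0.14 for YS (SD, n = 4). Smooth muscle and pericyte markers were higher for 6 of 7, with list means from 9.93 to 10.79 and from 9.60 to 10.30, and their actin ACTA2 had means of 13.10 ± 0.51 and 12.61 ± 0.40. Fibroblast and progenitor markers were lower for 7 of 7, with list means from 10.30 to 10.74 and from 10.73 to 11.52, and the proteoglycan DCN had means of 14.14 ± 0.75 and 14.58 ± 0.50. In none of these lists did a gene pass the test. At an unadjusted p under 0.05 there were DES, the muscle intermediate filament protein, with a log2 difference of 1.49 ± 0.49 (SE; limma, unadjusted p = 0.0143), and MFAP5, an elastic fibre protein, at -1.19 ± 0.37 (SE; limma, unadjusted p = 0.00962) and no overlap between breeds. Both are named after their values were seen. DES was above background on 4 KNP and 2 YS arrays, and its highest value, 8.80, was on KNP replicate 2, the array with strong skeletal muscle signal. The lists' part in the caveolin values was not tested.

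Relations of the members with the marker lists were examined after the values had been seen. CAV1 set 3 was highest where endothelial markers were lowest. Over 8 arrays r was -0.878 (exact permutation p = 0.00397, adjusted p = 0.143 over 36 relations of 6 genes with 6 marker lists) and rho was -0.976 (exact permutation p = 0.000397, adjusted p = 0.0143), and without KNP replicate 1 and YS replicate 4 r was -0.819. CIDEA ran with the endothelial list, at r = 0.809 (exact permutation p = 0.0174, adjusted p = 0.313) and rho = 0.786 (exact permutation p = 0.0279, adjusted p = 0.495), but r was 0.277 without those 2 arrays. Both arrays were also among the 3 of largest 3'/5' difference. CAV1 set 2 was lowest in each breed on these same arrays, at 8.07 and 9.71. The inverse relation of CAV1 with the endothelial list, which passed by rho and not by r, was thus seen for set 3 and not for the gene. Only the brightest probe set of each gene was set against the lists. PLIN2 ran against the fibroblast and progenitor list, at r = -0.720 (exact permutation p = 0.0471, adjusted p = 0.449) and rho = -0.714 (exact permutation p = 0.0576, adjusted p = 0.495), and against the adipocyte list, at r = -0.680 (exact permutation p = 0.0575, adjusted p = 0.449) and rho = -0.643 (exact permutation p = 0.0962, adjusted p = 0.495), and neither passed.

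**Figure D5:**
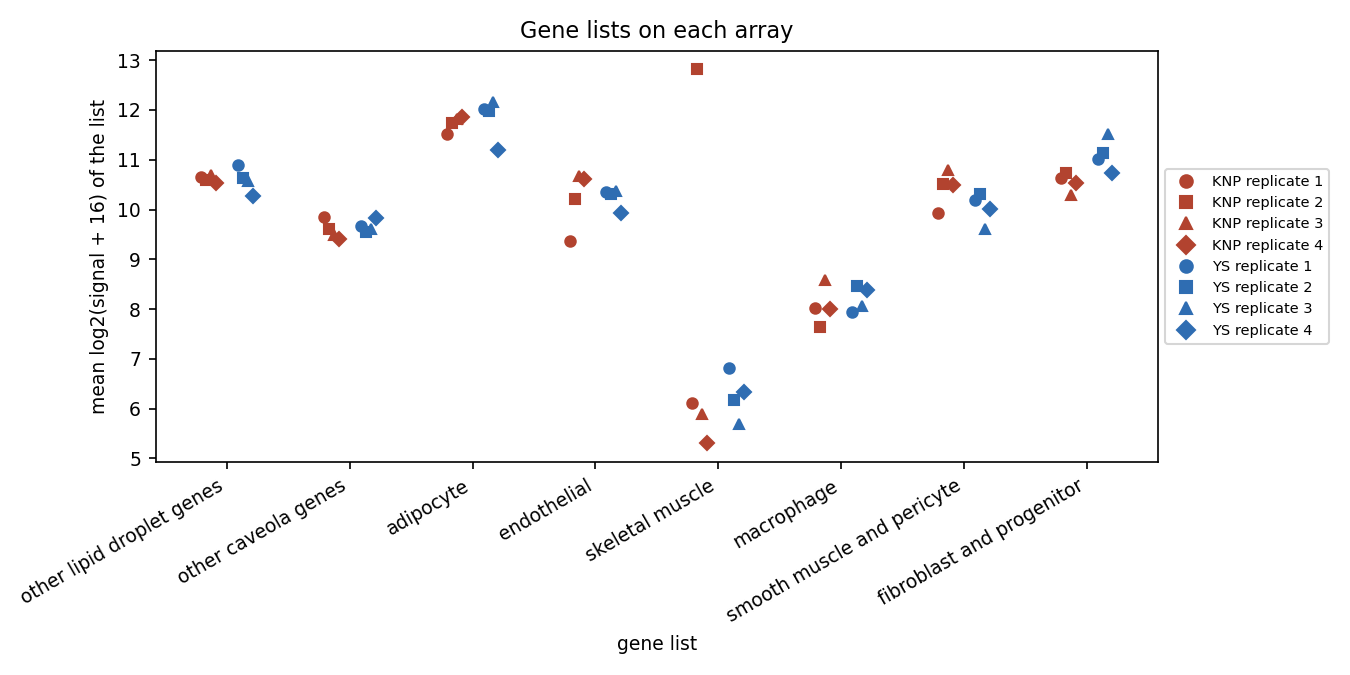
Mean log2(signal + 16) of the tested genes of each list on each array (points; red KNP, blue YS, shape by replicate). KNP replicate 2 stands at 12.81 in skeletal muscle, where the other 7 arrays lie between 5.31 and 6.82, and KNP replicate 1 and YS replicate 4 are the lowest of their breeds in the adipocyte and endothelial lists.

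Of 10 skeletal muscle markers with a probe set, 6 passed the low-value filter, which used the mean over all arrays, KNP replicate 2 among them. Their list mean was 12.81 on KNP replicate 2, against 5.31 to 6.82 on the other 7 arrays. All 6 had a higher mean in KNP, and each had its highest value on KNP replicate 2. The count thus rests on that array and gives no direction between breeds. KNP replicates 1, 3 and 4 had list means of 6.12, 5.89 and 5.31, and YS arrays from 5.69 to 6.82. CKM, the muscle creatine kinase, had means of 8.80 ± 3.31 for KNP and 7.24 ± 0.53 for YS (SD, n = 4). It was above background on 3 KNP and 4 YS arrays, and 0 of the 6 genes were above it on all 8 arrays. KNP replicate 2 also had the highest PLIN3 and BSCL2 set 1 values and the lowest CAV1 set 1 and CAV2 set 2 values of the 8 arrays. Without it the differences were 0.33 for PLIN3, 0.12 for BSCL2 set 1, -0.43 for CAV1 set 1 and -0.28 for CAV2 set 2. KNP replicate 2 also had a 3'/5' difference of 5.88, larger than on any other array but KNP replicate 1. The part of muscle signal or of RNA quality in these values was not tested. Macrophages also carry PLIN2, and their markers were higher in KNP for 2 of 6 genes, with list means from 7.64 to 8.59 in KNP and from 7.94 to 8.47 in YS. CD163, a macrophage scavenger receptor, had means of 9.85 ± 0.89 and 10.52 ± 0.40.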

How the data were processed

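The authors' deposited table held 1 linear signal intensity per probe set and array from 8 biotin-labelled 1-colour arrays. The trimmed mean (2% off each end) was 500 on every array, as read from the values, so this scaling was kept. The probe summary algorithm and detection calls are not given in the sources used here. Gene symbols came from the platform's annotation: 10069 probe sets had 1 symbol, 198 several and 13732 none, and 9961 of the first matched RefSeq (Sscrofa11.1) by Entrez identifier. No positions or sequences of probe sets were used here.

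Values were transformed to log2(signal + 16). The 124 control probe sets and the 25% with the lowest mean were left out, which left 17999. The breed difference was fitted in limma 3.58.1 under R 4.3.3 (lmFit, eBayes, no covariate, two-sided; statmod 1.5.0 for robust fits), with p-values adjusted over all of them; the fit was first tested on simulated data. Correlations used exact permutations (Python 3.11.15, scipy 1.17.1, numpy 2.4.6). All probe sets of the members are named. From each list of other genes the 3 of smallest p were named, from each marker list the one of highest mean, and for likeness the 4 of highest r; 5 others are marked as named after their values were seen. Members and lists were chosen with earlier results of these data known. Alternatives were the filter, normalization, pseudocounts of 1 and 64, variance model, array weights, replicate block, 3'/5' covariate, threshold and arrays left out.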

Additional observations from a re-analysis of the deposited data

How the results depend on the processing

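The count of member probe sets past the threshold was 0 in each of 20 alternative settings, and the smallest adjusted p of a member in limma was 0.592, on the 5 arrays where the 3'/5' difference was smaller. Over all probe sets the count was also 0, with a smallest adjusted p of 0.0596 with trend and robust variance. Of 185 differences recomputed, 170 kept their sign and 15 did not, and 6 of 10 probe sets kept it throughout. The 170 include those under the changed filters, the variance model and the replicate block, which equal the main difference by construction and could not turn. CIDEA turned to 0.12 with array weights, 0.32 under the 3'/5' covariate, 0.27 on these 5 arrays, 0.44 without KNP replicate 1, 0.08 without YS replicate 1 and 0.07 without YS replicate 3. BSCL2 set 1 turned to -0.21 with array weights, -0.71 on these 5 arrays and -0.14 without YS replicate 4. BSCL2 set 3 turned to 0.20 with array weights, 0.23 on these 5 arrays, 0.21 without KNP replicate 2 and 0.14 without YS replicate 4. CAV1 set 3 turned to 0.10 without KNP replicate 3 and 0.0038 without YS replicate 4. Leaving out 1 array at a time, the ranges were -0.58 to 0.44 for CIDEA, -0.14 to 0.62 for BSCL2 set 1, -0.35 to 0.10 for CAV1 set 3 and, in the 4 of 8 such fits where the low-value filter kept it, -0.69 to 0.21 for BSCL2 set 3. The cause was not tested. Correlated pairs of members numbered 0 in all settings but 1: leaving out 1 array gave 0 to 1, with CIDEA and CAV2 at r = -0.928 without YS replicate 1. Single r values moved with the normalization. PLIN2 with PLIN3 was at -0.45 after quantile normalization and at 0.37 after median centring, and PLIN2 with CAV1 at 0.28 and -0.70. The r of the CAV1 gap with the 3'/5' difference stayed between 0.933 and 0.977 over 12 settings added after seeing the data. Among these, median centring cannot change a gap within an array and so could not move this r. The labels do not say that replicate numbers pair the samples. Same-numbered deviations from breed means were not alike (r from -0.19 to 0.13), which does not settle whether the numbers share a block. The fit with the replicate block called 0 member probe sets and 0 in all. Each replicate number was held by 1 array of each breed, so the block could change the standard error of a difference but not the difference. Signal near background limited BSCL2 sets 2 and 3.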
